A study of Mus musculus with 4 samples.

Results

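The 10 genes described here encode the MHC class II presentation machinery. They were taken by symbol from the count tables, which hold 49993 genes, and all 10 were found and passed the filter on low counts. They comprise the class II chains H2-Aa, H2-Ab1 and H2-Eb1, the invariant chain Cd74, the transactivator Ciita, the peptide-loading genes H2-DMa, H2-DMb1 and H2-Oa, and the co-stimulatory ligands Cd86 and Cd80. RNA came from CD11b+ cells pulled from mouse brain with magnetic beads at an age of 10 months, and was sequenced in bulk. The AD group (2 libraries) was APP/PS1+ asrij+/+, and the AD/KO group (2 libraries) was APP/PS1+ asrij-/-. Every mouse therefore carried the amyloid-forming APP/PS1 transgenes, and no group without them is compared here. The asrij deletion was constitutive, so cells other than microglia lacked the gene too. Sex, strain background, the promoter of the transgenes and the number of animals per library are not given in the sources used here, so p-values measure the spread between these libraries.

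MHC class II molecules are pairs of an alpha and a beta chain that display peptides from engulfed proteins to CD4+ T cells. The invariant chain occupies the groove during assembly, H2-DM later exchanges its remnant for a peptide, and H2-O restrains H2-DM. Transcription of these genes depends on Ciita, which is itself induced by interferon gamma and is recruited to paired X and Y boxes in their promoters. Resting microglia express little class II, activated microglia around amyloid plaques express more, and monocytes, dendritic cells, border-associated macrophages and B cells are richer sources. Cd80 and Cd86 supply the second signal that T cells read through Cd28.

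The promoter motifs are shown first because the X and Y boxes are where the transactivator is recruited. RefSeq promoter windows on GRCm38.p6 (300 bases, ending 50 bases after the start) were at hand for 6 of the 10 members: H2-Aa, H2-Eb1, H2-DMa, H2-DMb1, H2-Oa and Cd80. The windows were searched on both strands for an X core (AGNAAC), a Y core (ATTGG), and an X core followed by a Y core on 1 strand with 10 to 40 bases between them. The Y core overlaps the CCAAT motif read on the opposite strand. The pair stood in the windows of H2-Eb1, H2-DMb1 and H2-Oa, and in 1.67% of 32851 windows of all genes. With a shorter X core (GNAAC), chosen after the windows had been read, it also stood in the H2-Aa window, against 4.87% of all windows. No pair was found in either of the 2 H2-DMa windows or in the Cd80 window, which says only that these letters were not there.

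The stretches around the pair are printed 5′ to 3′ on the gene's strand, with the X and Y cores in capitals. They end upstream of the start of transcription. H2-Aa lies on the minus strand (chr17:34287852-34287919), and H2-Eb1 (chr17:34305760-34305827), H2-DMb1 (chr17:34153081-34153149) and H2-Oa (chr17:34092287-34092355) lie on the plus strand.
H2-Aa: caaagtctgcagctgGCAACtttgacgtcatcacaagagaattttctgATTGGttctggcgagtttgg
H2-Eb1: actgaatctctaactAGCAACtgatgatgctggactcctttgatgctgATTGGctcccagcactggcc
H2-DMb1: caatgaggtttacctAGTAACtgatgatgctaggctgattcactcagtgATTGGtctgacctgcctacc
H2-Oa: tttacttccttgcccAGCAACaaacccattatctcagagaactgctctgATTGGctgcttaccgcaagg
Between the cores lay 28 bases in H2-Aa, 27 in H2-Eb1, 28 in H2-DMb1 and 28 in H2-Oa, so that the spacing differed by at most 1 base among these genes. H2-Eb1 and H2-Oa had the same X core. The same pair was present in the windows of the related genes H2-Ob (25 bases between) and H2-Eb2 (27 bases), and in neither form in that of H2-DMb2.

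The libraries held from 13102622 to 19810076 counts. Ociad1, the mouse name of asrij, still had 746 and 592 reads in the AD/KO libraries against 691 and 1032 in AD. Its level was 38.9 and 32.1 CPM in AD/KO and 50.2 and 63.4 CPM in AD (log2 fold change −0.68, SE 0.29), lower in both AD/KO libraries but not lost, and AD and AD/KO mean the libraries so labelled. A list of 16 homeostatic microglia genes, among them P2ry12, Tmem119 and Csf1r, was abundant in every library, with sums of 21600 and 14710 CPM for replicates 1 and 2 of AD and of 21730 and 6339 CPM for those of AD/KO. AD/KO replicate 2 thus stood apart. Sums of neural markers were highest in that library. All 8 neuron and all 8 astrocyte markers had a positive log2 fold change, as did 10126 of all 21439 genes tested. In 7 of the 8 astrocyte markers, but in only 1 of the 8 neuron markers, both AD/KO libraries were above both AD libraries. Of 8 oligodendrocyte markers, 6 had a positive log2 fold change and 4 were separate in this way, while Mog (−0.42) and Mag (−0.37) went the other way. The share of all genes separate in this way was not computed. Neuron markers summed to 193 and 724 CPM in AD and 547 and 1679 CPM in AD/KO, astrocyte markers to 1866 and 4384 against 4555 and 11660 CPM, and oligodendrocyte markers to 1650 and 2648 against 3950 and 8629 CPM. Their part in the results was not tested. AD replicate 2 stood apart by neutrophil markers (4875 CPM, against 349 to 559) and by 1391 reads of Xist, the transcript of the inactive X chromosome, against 3 to 15. By Xist, AD replicate 2 held RNA of female cells and the other libraries next to none, so sex was not alike within AD. The part of sex in the results was not tested. In bulk RNA, fewer cells of a type and less RNA per cell cannot be told apart. CPM are counts per 1000000 reads with library sizes adjusted by TMM, edgeR's default scaling.

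Class II transcripts were at a lower level in the AD/KO libraries than in the AD libraries, most of all the 3 chains and Cd74, whose log2 fold changes lay between −1.50 and −1.38. The other 6 members had log2 fold changes from −0.91 to −0.64. Leaving out 1 library moved the chains and Cd74 widely, from −2.00 to −1.04 for H2-Aa, −2.25 to −0.90 for H2-Ab1, −2.30 to −0.80 for H2-Eb1 and −2.27 to −0.97 for Cd74, with the lowest value of each without AD/KO replicate 1. No member passed the test. Of the 10, 0 had a Benjamini-Hochberg adjusted p under 0.05 in the quasi-likelihood test of edgeR over 21439 genes, and 0% of all genes did. The adjusted p of the members ran from 0.653 to 0.739. DESeq2 also called 0 of 10, where it called 0.462% of 19705 genes. At an unadjusted p under 0.05, edgeR gave 2 of 10 members as lower (H2-Aa and Cd74), where 2.47% of all genes were lower at that threshold.

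All 10 members had a negative log2 fold change, as did 52.8% of all genes tested, and their median was −0.82 against −0.05 over all genes. The direction was not particular to the members: 15 of the 16 homeostatic microglia genes also had a negative log2 fold change, with a median of −0.40. A log2 fold change of −1 or less was seen in 4 of 10 members and in 8.82% of all genes. The groups were separate, with AD/KO the lower, in 6 of 10 members and in 21.7% of all genes. The medians rested unevenly on the libraries: without AD/KO replicate 1 the members' median was −2.04, and without AD/KO replicate 2 it was −0.52. The 6 members with separate groups became 10 when AD/KO replicate 1 was left out and 9 when AD replicate 2 was. Groups separate more easily with a library left out, and the share of all genes was not computed there. These rises therefore say nothing about the members.

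**Figure D1:**
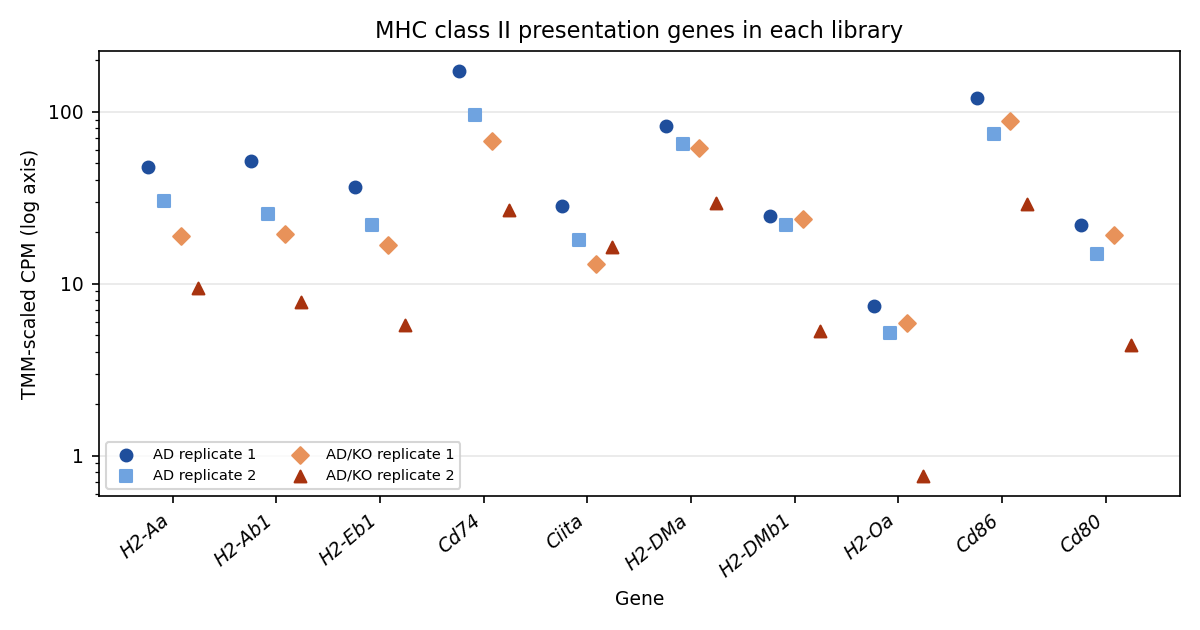
TMM-scaled CPM (log axis) of the 10 genes, 1 point per library. For H2-Aa, H2-Ab1, H2-Eb1 and Cd74 the 4 libraries stand in the same order and the groups do not overlap, whereas AD/KO replicate 1 lies among the AD libraries for H2-DMb1, H2-Oa, Cd86 and Cd80.

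H2-Aa encodes the alpha chain of the I-A molecule (gene ID 14960, chromosome 17, 34282744 to 34287823, protein-coding). Its level was 47.6 CPM and 30.3 CPM in replicates 1 and 2 of AD, and 18.8 CPM and 9.39 CPM in those of AD/KO. Both AD/KO libraries were below both AD libraries, and replicate 1 was the higher library in each group. The AD libraries averaged 39.0 ± 12.2 CPM (SD, n = 2) and the AD/KO libraries 14.1 ± 6.67 CPM (SD, n = 2), and the fitted log2 fold change was −1.46 (SE 0.47). The unadjusted p was 0.0267 and the adjusted p 0.653 by the quasi-likelihood test of edgeR.

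H2-Ab1 encodes the beta chain that pairs with H2-Aa (gene ID 14961, chromosome 17, 34263227 to 34269418, protein-coding). It stood at 51.8 and 25.3 CPM in AD replicates 1 and 2 and at 19.3 and 7.81 CPM in AD/KO replicates 1 and 2. The groups did not overlap, but AD replicate 2 lay nearer to AD/KO replicate 1 than to AD replicate 1. The log2 fold change was −1.50 (SE 0.59). H2-Eb1, the beta chain of the I-E molecule (gene ID 14969, chromosome 17, 34305867 to 34316674, protein-coding), followed the same order with 36.6, 21.9, 16.7 and 5.75 CPM and a log2 fold change of −1.38 (SE 0.61).

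Cd74, the chaperone of newly made class II pairs, is encoded outside this cluster (gene ID 16149, chromosome 18, 60803849 to 60812652, protein-coding). It stood at 172 and 96.1 CPM in replicates 1 and 2 of AD and at 67.9 and 26.8 CPM in those of AD/KO. The averages, 134 ± 53.9 CPM (SD, n = 2) for AD and 47.4 ± 29.1 CPM (SD, n = 2) for AD/KO, differed by −1.50 on the log2 scale (SE 0.57, unadjusted p 0.0455 by edgeR). The order of libraries was that of the chains, although Cd74 lies on another chromosome.

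The ratio of Cd74 to the chains was nearly constant. Per read of the 3 chains there were 1.27 and 1.24 reads of Cd74 in replicates 1 and 2 of AD, and 1.24 and 1.17 in those of AD/KO. Per length of exon sequence, Cd74 stood at 5.98, 5.90, 5.75 and 5.65 times the mean of the 3 chains in the same order. The chains and Cd74 therefore differed together over a range in which Cd74 itself differed from 26.8 to 172 CPM. The ratio of H2-Ab1 to H2-Aa reads was more variable (1.09, 0.836, 1.03 and 0.832), with the replicates 1 above the replicates 2 in both groups.

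Ciita, the master regulator of class II transcription, did not follow the chains in every library (gene ID 12265, chromosome 16, 10480014 to 10531064, protein-coding). Its level was 28.4 and 17.9 CPM in the AD libraries, and 13 and 16.2 CPM in AD/KO replicates 1 and 2. The groups did not overlap, but AD/KO replicate 2, lowest for every other member, was above AD/KO replicate 1. The log2 fold change was −0.66 (SE 0.37). For every 100 reads of the 3 chains there were 20.9, 23.1 and 23.7 reads of Ciita in the first 3 libraries and 70.7 in AD/KO replicate 2. Of the exon length of Ciita, 3.45% is shared with Dexi on the other strand, which had 77 to 217 reads and was most abundant in AD/KO replicate 2.

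The 3 peptide-loading genes had log2 fold changes nearer to 0 than those of the chains, a difference that was not tested and that did not hold for all of them without AD/KO replicate 1. H2-DMa, the alpha chain of the peptide exchanger (gene ID 14998, chromosome 17, 34119693 to 34139101), had 82.6 and 65.2 CPM in AD and 61.6 and 29.4 CPM in AD/KO. Its groups did not overlap, with a gap of a few CPM between AD replicate 2 and AD/KO replicate 1, and the log2 fold change was −0.70 (SE 0.43). Brd2, on the other strand, shares 10.4% of the exon length of H2-DMa and had 3537 to 4948 reads, so part of the H2-DMa count is uncertain if strand was not used in counting.

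H2-DMb1, the partner beta chain (gene ID 14999, chromosome 17, 34153191 to 34160229), had 24.8 and 21.9 CPM in AD against 23.7 and 5.32 CPM in AD/KO. Only AD/KO replicate 2 was lower, and without it the log2 fold change turned from −0.68 (SE 0.71) to 0.03, while without AD/KO replicate 1 it was −2.08. Its transcript matches that of the neighbouring gene H2-DMb2 at 95.7% identity over 1081 bases, so reads may have been split between them or dropped. H2-DMb2 was at 9.94, 6.21, 7.19 and 3.04 CPM, again with overlapping groups.

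H2-Oa, the alpha chain of the modulator H2-O (gene ID 15001, chromosome 17, 34092379 to 34095234), was the least abundant member by CPM, with 102, 84, 113 and 14 reads in the same order of libraries. The lowest library was again AD/KO replicate 2, and the other 3 overlapped. Its log2 fold change was −0.91 (SE 0.95) and became −0.08 without AD/KO replicate 2 and −2.98 without AD/KO replicate 1. The antisense gene BC051537 covers 22.8% of its exon length and had 0 to 7 reads.

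For the co-stimulatory ligands the groups overlapped. Cd86, the ligand found on resting antigen-presenting cells (a protein-coding gene, ID 12524, chromosome 16, 36568956 to 36666158), had levels of 119 and 74.2 CPM in AD and of 87.9 and 28.9 CPM in AD/KO. AD/KO replicate 1 stood between the AD libraries, and the log2 fold change of −0.73 (SE 0.60) became −0.13 without AD/KO replicate 2 and −1.69 without AD/KO replicate 1. Cd80, the inducible ligand of the same receptors (a protein-coding gene, ID 12519, chromosome 16, 38457430 to 38495958), had 21.9, 14.9, 19.1 and 4.40 CPM. Its log2 fold change of −0.64 (SE 0.73) turned to 0.07 without AD/KO replicate 2 and was −2.01 without AD/KO replicate 1. Per 100 reads of Cd86 there were 18.31, 20.03, 21.71 and 15.23 reads of Cd80, with overlapping groups.

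Levels of different genes were compared per length, as CPM per kilobase of exon sequence, with all annotated exons of a gene joined. Cd74 was the highest member in each of the 4 libraries (15.97 to 102.7 CPM per kilobase). Cd86 (7.89 to 32.6) and H2-DMa (8.52 to 23.9) came next and overlapped each other. H2-DMb1, H2-Eb1 and H2-Ab1 followed, with averages over the 4 libraries of 11.3, 10.4 and 10.1 CPM per kilobase and ranges that overlapped, so their order is not resolved. H2-Aa (2.47 to 12.5), Cd80 (1.19 to 5.90), H2-Oa (0.540 to 5.26) and Ciita (1.36 to 2.98) were lowest, also with overlapping ranges. The invariant chain thus exceeded each of its partner chains several-fold per length. The gene for the transactivator had the lowest average per length, but it was not the lowest in AD/KO replicate 2. By CPM, without regard to length, H2-Oa was below Ciita in every library.

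The level of the class II genes was next set against that of microglial genes, because the homeostatic list was much lower in AD/KO replicate 2. Reads of each member were expressed per 1000 reads of the geometric mean of the 16 homeostatic genes. On this scale H2-Aa was at 52.5 and 47.2 in AD, and at 21.3 and 36.6 in replicates 1 and 2 of AD/KO. Cd74 was at 190, 150, 76.9 and 105. The chains and Cd74 were still lower in both AD/KO libraries, but AD/KO replicate 1 was now the lowest library, not AD/KO replicate 2.

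On the same scale, the groups were separate, with AD/KO the lower, in 8 of 10 members and in 6.42% of all genes. For Cd86 the separation was small (132 and 116 in AD, 99.5 and 113 in AD/KO). The exceptions were H2-DMa (91.0 and 101 against 69.8 and 115) and Ciita (31.3 and 27.9 against 14.7 and 63.3). In both of these AD/KO replicate 1 was the lowest library and AD/KO replicate 2 the highest.

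**Figure D2:**
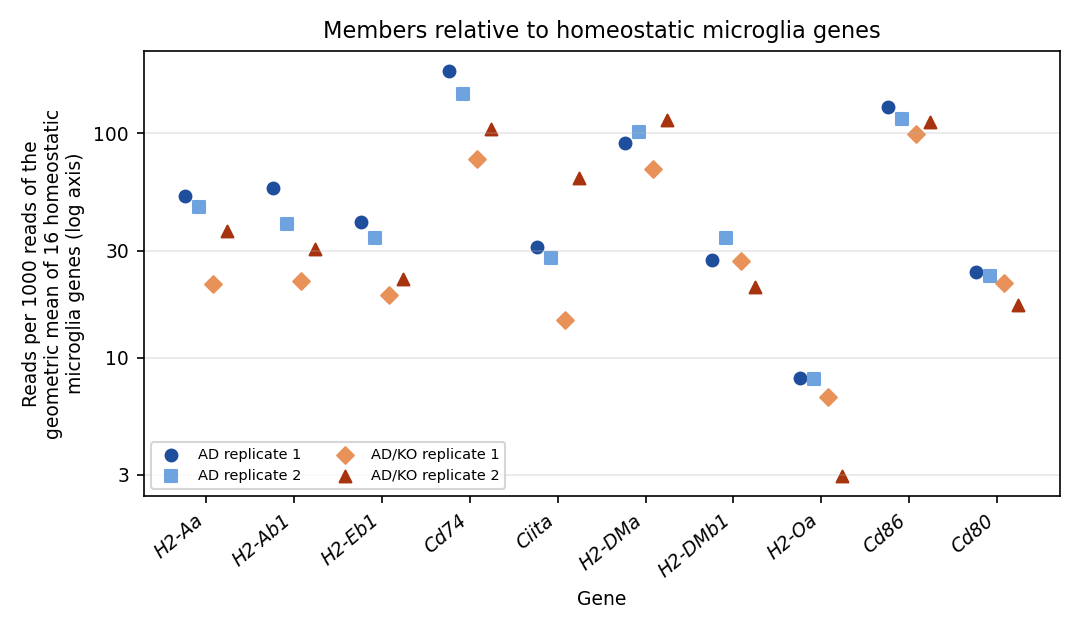
Reads of each gene per 1000 reads of the geometric mean of 16 homeostatic microglia genes (log axis), 1 point per library. For the 3 chains and Cd74 AD/KO replicate 1 is lowest and both AD/KO libraries lie below AD, while Ciita and H2-DMa are highest in AD/KO replicate 2.

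In an edgeR fit with the libraries scaled to this list, the median over all genes moved from −0.05 to 0.77, and 19.4% of all genes were below 0. Of the members, 9 of 10 were below 0, with a median of −0.50. The values were −0.80 (SE 1.04) for H2-Aa, −0.89 (SE 1.04) for H2-Ab1, −0.86 (SE 1.04) for H2-Eb1 and −0.91 (SE 0.99) for Cd74. Ciita changed direction to 0.36 (SE 1.09), and H2-DMa came to −0.07 (SE 0.99). No member passed the threshold in this fit either (adjusted p from 0.829 to 0.988, edgeR quasi-likelihood with Benjamini-Hochberg adjustment).

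**Figure D3:**
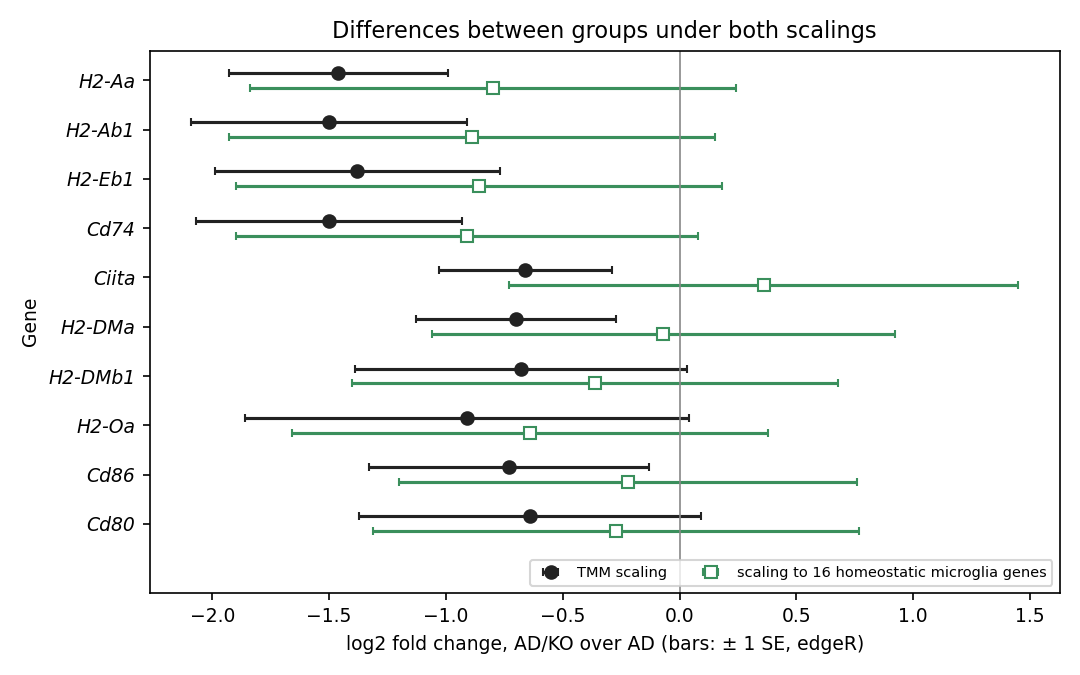
Log2 fold change of AD/KO over AD for each gene with bars of ± 1 SE from edgeR, under TMM scaling (filled) and under scaling to 16 homeostatic microglia genes (open). The 3 chains and Cd74 are the lowest 4 genes under both scalings, and Ciita lies above 0 under the second, where the median of all genes is 0.77.

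AD/KO replicate 1 was also set against AD replicate 1, since their homeostatic sums were close (21730 and 21600 CPM). Other markers were not alike in AD and AD/KO replicate 1. Astrocyte markers summed to 1866 and 4555 CPM, and border-associated macrophage markers to 140 and 74.3 CPM. Between these 2 libraries the log2 differences were −1.34 for H2-Aa, −1.42 for H2-Ab1, −1.13 for H2-Eb1, −1.34 for Cd74 and −1.13 for Ciita. They were −0.42 for H2-DMa, −0.44 for Cd86, −0.33 for H2-Oa, −0.20 for Cd80 and −0.07 for H2-DMb1. The chains, Cd74 and Ciita thus differed more between this pair of libraries than the loading and co-stimulatory genes. Against AD replicate 2, AD/KO replicate 1 differed less: −0.69 for H2-Aa, −0.39 for H2-Ab1, −0.39 for H2-Eb1, −0.50 for Cd74 and −0.47 for Ciita. The other members then ran from −0.08 for H2-DMa to 0.36 for Cd80. Each of these is 1 library against 1, with no replicate check.

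Markers of other cells that carry class II were examined beside these results. The summed level of 9 border-associated macrophage markers was 140 and 129 CPM in AD and 74.3 and 63.2 CPM in AD/KO, and none of the 9 was at 0 in any library. In 7 of the 9, including Mrc1 and F13a1, both AD/KO libraries were below both AD libraries, as in 21.7% of all genes, and 3 of 9 were lower at an unadjusted p under 0.05 by edgeR. Per homeostatic reads 1 of the 9 was separate in this way, and with that scaling their median was −0.23 and Mrc1 turned from −0.62 to 0.25. Of 8 monocyte markers, all 8 had a negative log2 fold change (52.8% of all genes). At that threshold 6 were lower (2.47% of all genes), none past the adjusted threshold by edgeR. With scaling to the homeostatic list 7 of the 8 were below 0 (19.4% of all genes), with a median of −1.71. Per homeostatic reads 4 were separate with AD/KO the lower (6.42% of all genes). Ly6c2, 1 of the 6, was at 5.23 and 28.0 against 3.96 and 2.66 CPM. Its log2 fold change of −2.32 became −0.59 without AD replicate 2. Ccr2, the chemokine receptor that defines inflammatory monocytes, was at 39.77 and 39.95 CPM in AD and at 10.3 and 6.13 CPM in AD/KO (log2 fold change −2.28, SE 0.38), and it was called by DESeq2 (adjusted p 0.0215). The summed monocyte level was 110 and 467 CPM in AD and 55.0 and 86.2 CPM in AD/KO. Of the 467 CPM, 294 were Chil3 (10.6 CPM in AD replicate 1, 15.1 and 25.7 CPM in AD/KO), whose log2 fold change of −2.90 became positive without AD replicate 2.

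Of 8 dendritic cell markers tested, 6 had a negative log2 fold change (52.8% of all genes). In 3 both AD/KO libraries were below both AD libraries (21.7% of all genes). These were Clec9a (2.03 and 2.09 against 0.626 and 0.543 CPM), Cd209a (4.64 and 4.43 against 1.62 and 1.03 CPM) and Clec10a (5.30 and 2.46 against 1.20 and 1.52 CPM). Clec9a and Cd209a were lower at an unadjusted p under 0.05 by edgeR. Flt3 was higher in both AD/KO libraries (6.53 and 7.38 against 10.2 and 22.5 CPM). With scaling to the homeostatic list 4 of the 8 were below 0, and the median was 0.03 against 0.77 for all genes. The summed dendritic cell level of 10 listed genes (378 and 287 against 445 and 185 CPM) was mostly Fscn1, which overlapped between groups (333 and 241 against 403 and 126 CPM). The 10 B cell markers summed to 26.6, 29.5, 20.8 and 24.0 CPM, with Ighm and Ighd at 0 reads in every library. The summed levels of the class II chains and of the border-associated macrophage and monocyte lists were thus lower in both AD/KO libraries. Some markers of both lists overlapped between groups, and per homeostatic reads only 1 of the 9 border-associated macrophage markers was separate. The part of these cells in the result was not tested.

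**Figure D4:**
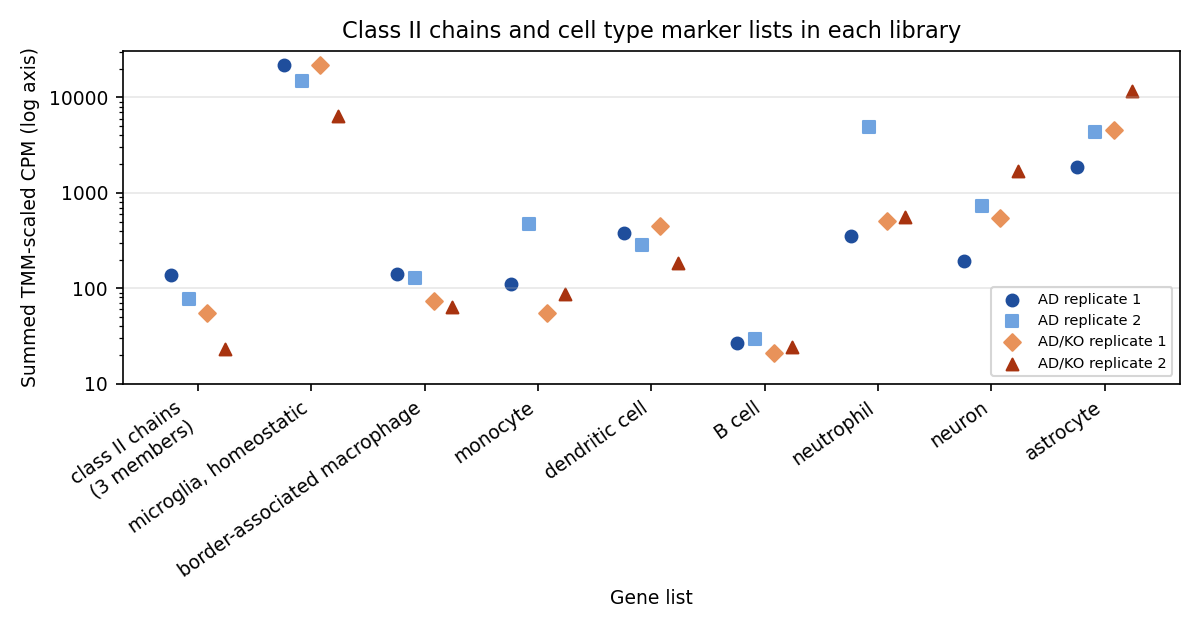
Summed TMM-scaled CPM (log axis) of the 3 class II chains and of 8 marker lists, 1 point per library. The chains and the border-associated macrophage list are lower in both AD/KO libraries, the homeostatic microglia list is low only in AD/KO replicate 2, and neutrophil markers are high in AD replicate 2.

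Other genes of the pathway were taken from lists, which were chosen with earlier results of these data known. Among further class II genes, 3 were tested, all 3 had a negative log2 fold change, and 0 passed either threshold. H2-Ob, the beta chain of H2-O, was at 44.9 and 26.7 CPM in AD and at 25.8 and 8.03 CPM in AD/KO (log2 fold change −1.08, SE 0.63). H2-Ea, the I-E alpha chain gene that RefSeq lists as a transcribed pseudogene in the reference strain, was at 18.4, 7.68, 5.89 and 2.44 CPM, and this gene was picked out after its values had been seen. Its log2 fold change of −1.64 (SE 0.68) was near those of the chains. H2-Eb2 had 0 or 1 read in each library and was not tested.

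Of 7 factors that assemble on the X and Y boxes, 5 had a negative and 2 a positive log2 fold change, the median was −0.03, and 0 passed either threshold. Rfx5, which binds the X box, was at 51.0 and 45.7 CPM in AD and at 51.8 and 42.8 CPM in AD/KO, and this gene too was named after its values had been seen. The most abundant of the 7, Nfya, a Y-box factor, was at 161, 95.1, 124 and 46.9 CPM, with overlapping groups. Named likewise after their values had been seen, Creb1 was at 105 and 78.7 against 69.8 and 48.3 CPM (log2 fold change −0.64, SE 0.33) and Rfxank at 14.2 and 14.1 against 21.1 and 19.8 CPM (0.53, SE 0.30), and in both the groups did not overlap. With scaling to the homeostatic list Creb1 turned to 0.16.

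Of 7 interferon gamma signalling genes tested, all 7 had a negative log2 fold change (median −0.42) and 0 passed either threshold. Ifng itself had 0 reads in every library. Irf8, the most abundant, was at 416 and 244 CPM in AD and at 328 and 91.6 CPM in AD/KO, with overlapping groups.

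Of 7 antigen-processing genes, all 7 had a negative log2 fold change (median −0.55) and 0 passed either threshold. Ctsd, a lysosomal protease and the most abundant, was at 4803, 4400, 3942 and 1327 CPM. With scaling to the homeostatic list, 4 of the 7 were below 0, and the median was −0.02 against 0.77 for all genes. Of the 2 turnover genes tested, Marchf1, a ubiquitin ligase that removes class II from the surface, was at 166 and 103 CPM in AD and at 122 and 59.8 CPM in AD/KO, overlapping.

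Of 5 other co-signalling ligands tested, all 5 had a negative log2 fold change, and 2 were lower at an unadjusted p under 0.05 by edgeR. Cd274, which encodes the inhibitory ligand PD-L1, was at 31.5 and 21.2 CPM in AD and at 11.5 and 5.10 CPM in AD/KO. The groups did not overlap, and the log2 fold change was −1.67 (SE 0.51, unadjusted p 0.0230 and adjusted p 0.653 by edgeR). Pdcd1lg2, which encodes PD-L2, had 8 and 15 reads in AD and 3 and 3 reads in AD/KO, so its AD/KO level was at the floor of 3 reads. Icosl, the most abundant of this list, overlapped between groups (127 and 69.1 against 103 and 34.3 CPM).

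On the T cell side, 3 of 6 partners were tested and 0 passed either threshold. Lag3, a receptor that binds class II, was at 190 and 118 CPM in AD and at 144 and 45.3 CPM in AD/KO, with overlapping groups. T and NK cell markers were nearly absent, with a summed level of 1.16 to 4.61 CPM over 10 genes and Trac and Trbc2 at 0 reads in every library. Of the other partners, Icos had 22 to 73 reads and Cd4 10 to 52 reads, both with overlapping groups.

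The 6 class II members on chromosome 17 lie in 224 kilobases (34092379 to 34316674, GRCm38.p6), a span with 13 protein-coding genes. The other 7 are Brd2, H2-DMb2, Psmb9, Tap1, Psmb8, Tap2 and H2-Ob. Of the 13 genes, only H2-Aa had an unadjusted p under 0.05 by edgeR. Brd2, a chromatin reader near the H2-DM end, was at 257, 238, 258 and 259 CPM, a log2 fold change of 0.06 (SE 0.31). The class I peptide transporters and immunoproteasome genes between the H2-DM and H2-Ab1 genes had log2 fold changes from −0.64 to −0.45, and all 4 had overlapping groups. The lowest 3 values in the span were those of H2-Ab1, H2-Aa and H2-Eb1, which are next to each other at its end.

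**Figure D5:**
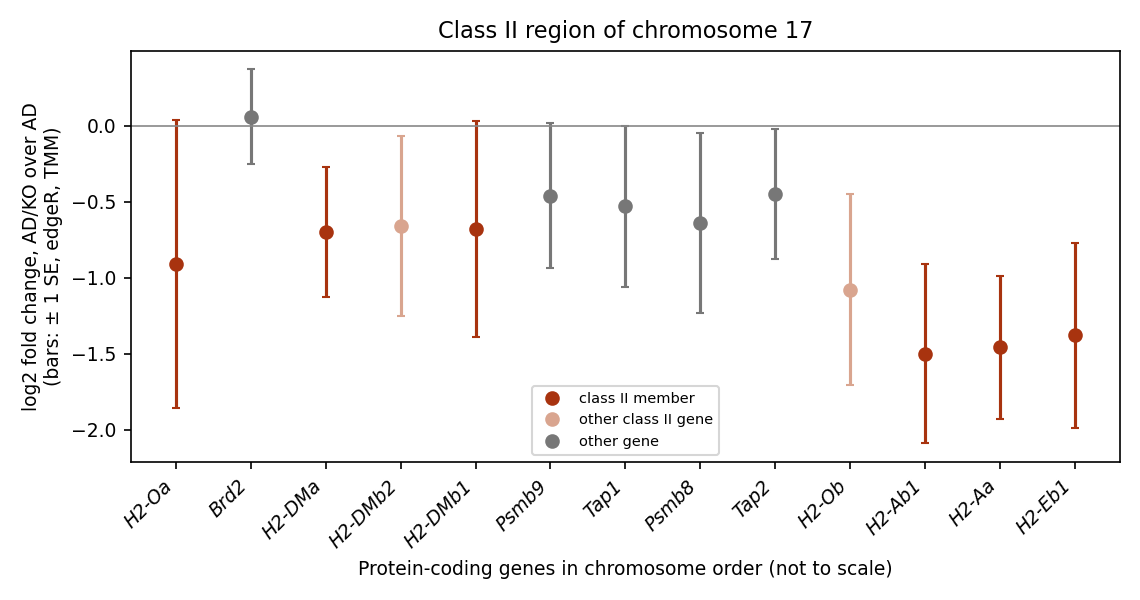
Log2 fold change of AD/KO over AD (± 1 SE, edgeR, TMM scaling) for the 13 protein-coding genes of the class II region in chromosome order. H2-Ab1, H2-Aa and H2-Eb1 lie lowest, from −1.50 to −1.38, and Brd2 lies at 0.06.

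Genes whose pattern was most like that of the 3 chains and Cd74 were found by the root mean square difference, over the 4 libraries, between log2 CPM profiles centred on their own means. The averaged profile of the 4 genes was 1.18, 0.37, −0.13 and −1.42. Among 13759 genes with a mean of at least 5 CPM outside the members, the closest were Pard3bos1, BE692007, Gm35672, Gpr82 and LOC115487771, with differences of 0.058 to 0.084 where the median gene had 0.94. Gpr82, an orphan receptor gene, was at 65.5, 33.5, 27.4 and 11.1 CPM. Of the other members, Cd86 was the nearest to this profile (0.345, place 568 among all genes), and Ciita was the farthest of those with enough reads to be placed (0.734). With 4 libraries a close profile is a description of these libraries.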

How the data were processed

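The authors deposited 1 table of raw read counts per gene symbol for each of the 4 libraries, not normalized. The submitters' processing notes name FastQC, HISAT2, SAMtools, featureCounts, Subread and DESeq2 1.30.0, and the build mm10, and per the labels' protocols ribosomal RNA was depleted and libraries were stranded. Strand use and the treatment of reads with several matches are not given in the sources used here. Broken lines (11 per table) left 4 genes without a count. One of them (Bag6, of the MHC region) carries an alternate contig of chromosome 17, so class II reads may have had more than 1 match.

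Genes were filtered with filterByExpr (minimum count 10, minimum total 15) and scaled by TMM, and AD/KO was tested against AD with edgeR 4.0.16 (quasi-likelihood, R 4.3.3), with Benjamini-Hochberg adjustment over all genes at 0.05. The SE is the size of the log2 fold change divided by the square root of F. CPM are given as mean ± SD. DESeq2 1.42.0, 2 other scalings, 2 other filters, the legacy quasi-likelihood method, a replicate block and leaving out each library were the alternatives. The procedure was tested on simulated data with planted changes larger than those of the members, so it was not tested at the members' size of change. Coordinates and promoters are from RefSeq (GRCm38.p6, all 10 members matched), and exon lengths and overlaps from GENCODE M21. Near-identical transcripts were searched with BLAST 2.17.0 (minimum identity 95%, minimum length 100 bases). The rule named all members, the most abundant gene of each pathway list, list genes at an unadjusted p under 0.05 and the 5 genes of most like profile. Members and lists were chosen with earlier results of these data known. Replicates differed by more than counting noise (chi-square per degree of freedom of 81.2 in AD and 183 in AD/KO).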

Additional observations from a re-analysis of the deposited data

How the results depend on the processing

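The number of genes past the adjusted threshold was 0 with edgeR (quasi-likelihood, 1175 genes had an unadjusted p under 0.05), and it stayed 0 with DESeq2 size factors, scaling to the homeostatic list, both other filters and the legacy method. DESeq2 called 91 genes, and leaving out 1 library gave 0 to 654 (50 without AD replicate 1, 654 without AD replicate 2). Members past the threshold were 0 under each of these. Same-numbered libraries deviated together across genes (correlation 0.72), but no label ties them. With the replicate number as a block, 4320 genes (20.2%) and 6 of 10 members were called, all 6 lower (H2-Aa, H2-Ab1, H2-Eb1, Cd74, H2-DMa and Cd86, edgeR adjusted p from 0.00408 for Cd74), and the cause was not tested. The members' median ran from −2.04 to −0.52 when 1 library was left out. The members with separate groups ran from 6 to 10, but leaving out a library makes separation easier, so this range is no check. Ciita changed direction to 0.36 with scaling to the homeostatic list. Leaving out 1 library gave −2.08 to 0.03 for H2-DMb1 and −2.01 to 0.07 for Cd80, the highest without AD/KO replicate 2. Of the members' single values under these alternatives, 101 had the same direction and the same call, 6 passed the threshold under the block, and 3 changed direction. With 2 libraries a group, the precision of every difference is limited, and depth was lowest for H2-Oa (down to 14 reads).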
